A study of Mus musculus with 6 samples.

Results

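Egr1, Egr2, Egr3, Ier2, Ier3, Ier5, Csrnp1, Nr4a1, Nr4a2 and Nr4a3 are early response genes, and they are 10 of the 23358 genes in the deposited table of the newborn mouse skull vault. They were taken by gene symbol, and all 10 were found and passed the filter on low counts. The set was chosen by gene family after the difference between the groups had been seen in these libraries, so that difference is given here as a description of the members, without p-values. The number of members past the threshold of the genome-wide test is printed only beside the share or number of all genes past it, and it supports nothing by itself. The table holds 6 RNA-seq libraries from calvaria of mice aged 2 to 3 days, 3 labelled wild type (WT) and 3 labelled as carrying a conditional knockout (cKO) of Ezh2, the methyltransferase of the Polycomb repressive complex PRC2. Both sets of labels carry Osx, an older name of the osteoblast factor gene Sp7. The construct that drives the deletion, any allele that the WT mice share with the cKO mice, and whether a library is 1 animal or a pool are not stated in the labels. Every bone, WT or cKO, was cut out, digested for 20 minutes at 37 °C with collagenase type II (2 mg/ml) and trypsin (0.005%) and only then frozen, so the RNA is that of digested bone. The comparison of cKO with WT asks which genes differ when Ezh2 is deleted under an Osx label.

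Early response genes are transcribed within minutes of a stimulus from factors already present in the cell, and their messages are short lived. A common route runs from the kinase ERK to serum response factor (SRF), which binds the CArG box together with ETS family partners, and another runs from cyclic AMP to CREB, which binds the cyclic AMP response element (CRE). Egr proteins are zinc finger transcription factors of GC-rich sites, Nr4a proteins are nuclear receptors that act without a known hormone, and Ier and Csrnp1 proteins are nuclear or stress response proteins. In osteoblasts parathyroid hormone, serum and mechanical load are known to induce members of these families. All bones were digested for 20 minutes at 37 °C before freezing. The part of that step in the early gene levels, in either group, was not tested.

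The promoter windows shown are those that lie at the start site of the deposited table and hold at least 1 CArG box or CRE core, the elements of these routes. RefSeq windows of GRCm38.p6 (the mm10 assembly), from 250 bases before to 50 bases after a start site, were found for 7 of the 10 genes: Egr2, Ier3, Ier5, Csrnp1, Nr4a1, Nr4a2 and Nr4a3. Egr1, Egr3 and Ier2 were not matched. The windows are printed on the strand of the gene, and they are chr10:67537619-67537918 (plus strand) for Egr2, chr15:101266596-101266895 (plus) for Nr4a1 and chr2:57123954-57124253 (minus) for Nr4a2. Capitals mark the CArG box, the CRE core TGACG (1 arm of the palindromic CRE) and the TATA box TATAAA on either strand.
Egr2: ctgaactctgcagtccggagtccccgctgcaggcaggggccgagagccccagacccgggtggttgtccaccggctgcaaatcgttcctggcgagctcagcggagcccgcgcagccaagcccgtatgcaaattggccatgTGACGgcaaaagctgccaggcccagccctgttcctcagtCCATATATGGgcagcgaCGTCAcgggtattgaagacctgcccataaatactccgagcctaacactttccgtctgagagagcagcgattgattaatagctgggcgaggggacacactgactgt
Nr4a1: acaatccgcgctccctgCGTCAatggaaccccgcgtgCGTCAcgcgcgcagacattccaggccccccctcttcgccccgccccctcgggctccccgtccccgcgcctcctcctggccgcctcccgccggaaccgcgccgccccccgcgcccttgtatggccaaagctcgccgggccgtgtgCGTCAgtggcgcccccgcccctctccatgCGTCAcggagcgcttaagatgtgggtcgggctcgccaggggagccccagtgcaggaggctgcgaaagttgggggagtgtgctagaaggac
Nr4a2: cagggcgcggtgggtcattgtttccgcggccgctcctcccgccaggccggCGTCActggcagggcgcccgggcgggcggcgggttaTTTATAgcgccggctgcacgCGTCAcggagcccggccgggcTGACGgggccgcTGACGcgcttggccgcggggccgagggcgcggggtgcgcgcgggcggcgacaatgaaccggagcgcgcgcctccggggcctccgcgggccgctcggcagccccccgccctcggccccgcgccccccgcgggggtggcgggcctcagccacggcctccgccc

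In the Egr2 window a CArG box spans positions -72 to -63 from the start site (position 0), between CRE cores beginning at -111 and -55. The Nr4a1 window holds cores beginning at -233, -213, -69 and -40, and the Nr4a2 window holds them at -200, -144, -123 and -111. Across both strands the CArG box was found in 1 of the 7 genes, Egr2, against 1.63% of all 32851 windows of this length and 1.81% of all genes. In Egr2, 4 of the 5 windows hold one, but those beginning at 67537619, 67537620 and 67537680 overlap and hold the same box, CCATATATGG. A CRE core was found in 5 of the 7 genes, namely Csrnp1, Egr2, Nr4a1, Nr4a2 and Nr4a3, against 20.8% of all windows and 23% of all 27025 genes. Egr2 has 5 windows and Csrnp1 has 4, which gives them more bases to match than most genes have. The full CRE TGACGTCA, which contains a core on each strand, was in 0 of the 14 windows of these genes (1.79% of all windows). The Egr site GCGNGGGCG was found in Nr4a1 and Nr4a2 (5.55% of all windows and 6.27% of all genes), where it overlaps a GC box, GGGCGG. The GC box was in all 7 genes, against 38.2% of all genes, and in 8 of their 14 windows, against 35.7% of all windows. Ier3 and Ier5 have neither a CArG box nor a CRE core in their windows. Motif matches describe these letters only and were not tied to binding.

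The counts of the libraries summed to between 60449016 and 95439578, with WT from 68260154 and cKO up to 71748348, and the 10 genes together took 0.168% to 0.184% of the counts in WT and 0.0939% to 0.107% in cKO. Ezh2 was 20.4 to 21.7 CPM (counts scaled to library size) in WT and 19.2 to 20.6 in cKO, and as the labels do not say which part of the gene is deleted, its count does not check them. Osteoblast markers were abundant in every library (summed CPM of 10 markers 132400 to 179800 in WT and 98950 to 134700 in cKO, with none at 0). The ranges overlapped, but Sp7 itself, the Osx gene, was called lower in cKO (224 ± 26.9 against 173 ± 9.35 CPM, log2 -0.37 ± 0.09, edgeR adjusted p = 0.0211). Osteoclast and macrophage markers (10 found of 11, none at 0) had a lower summed CPM in every cKO library than in any WT library. The sums were 2201 to 2883 in WT and 1821 to 2037 in cKO. Of the 10 tested, Acp5 and Csf1r were called lower, where 6.45% of all genes tested were. Neural markers (7 of 7 found) also had lower sums in cKO, 11 to 13.9 against 14.4 to 15.5 in WT. Of the 5 neural markers tested, Tubb3 alone was called lower. The part of these cells, or of the lower Sp7, in the early gene values was not tested. Endothelial, erythroid, neutrophil, B cell, muscle, epidermal and cartilage markers overlapped between the groups. The library cKO 37 stood apart in cartilage markers (summed CPM 790 against 2231 to 8303 in the other 5), and values without it are given where they matter. In bulk bone, fewer cells of a type and less RNA per cell cannot be told apart.

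All 10 early genes had lower mean levels in cKO than in WT. Added up, WT 14 had 1774 CPM of them, WT 27 had 1638 and WT 29 had 1907, while cKO 8 had 1110, cKO 10 had 988 and cKO 37 had 876. The group means were 1773 ± 135 and 991 ± 117 CPM (± SD, 3 libraries each). The highest cKO library thus lay well below the lowest WT library. Egr1 alone made up 51.8% to 52.7% of that sum in WT and 47.3% to 51.3% in cKO. Without Egr1 the sum was still 775 to 901 in WT and 461 to 541 in cKO. Fitted log2 fold changes of cKO over WT ran from -1.30 in Csrnp1 to -0.41 in Egr3, with a median of -0.67, against 0.01 over all 16089 genes tested. In 9 of the 10 all cKO libraries lay below all WT libraries, as they did in 17.4% of all genes tested. With the edgeR quasi-likelihood test and a Benjamini-Hochberg adjusted p of 0.05, 8 of the 10 (not Nr4a2 and Nr4a3) were past the threshold, as were 6.45% of all genes tested in that direction. Since the members were picked with this contrast in view, nothing is read from these shares.

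**Figure D1:**
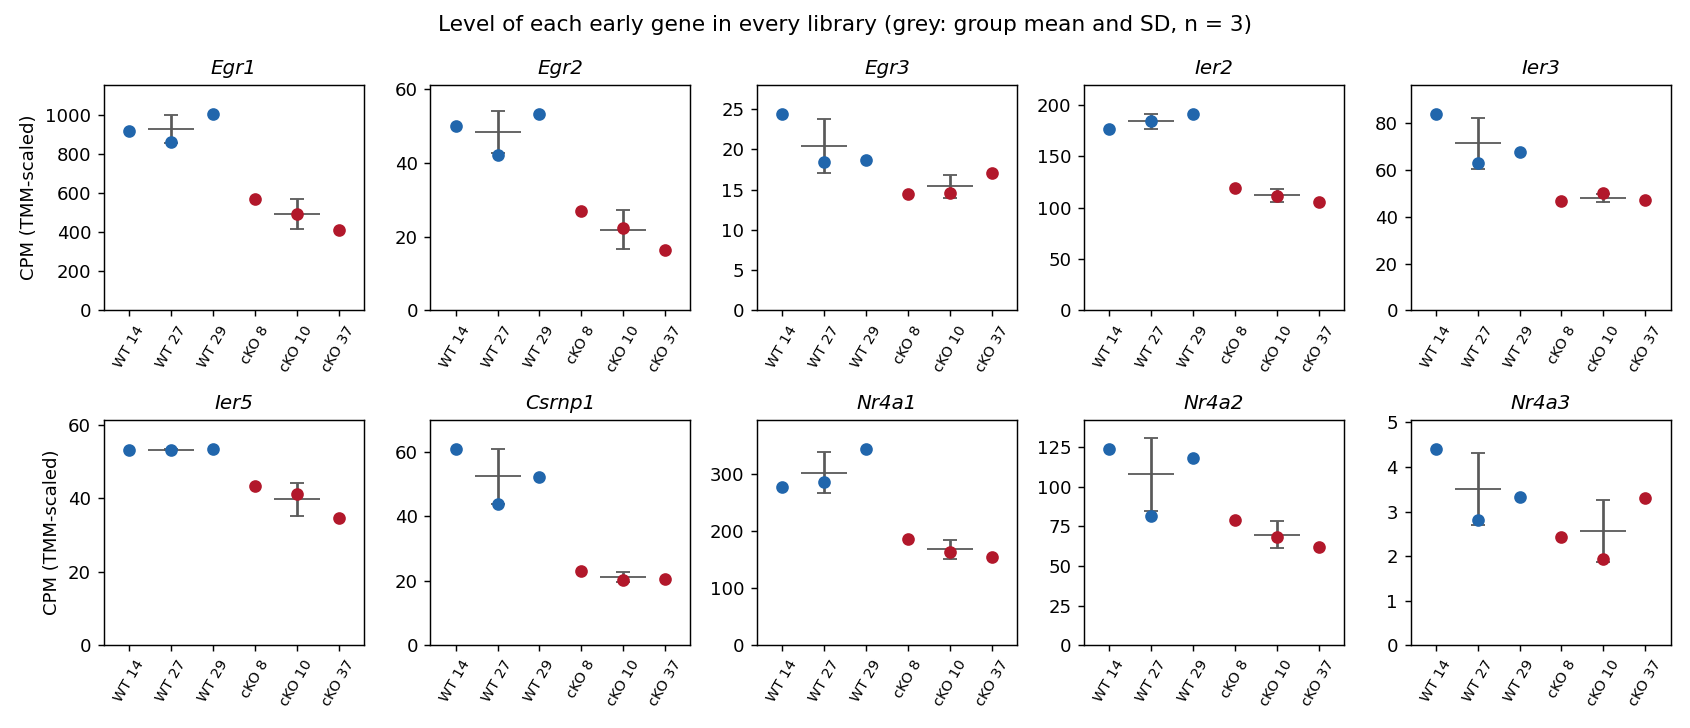
TMM-scaled CPM (vertical axes, each from 0) of the 10 early genes in each library (horizontal axes; blue points WT, red points cKO), with the group mean and SD in grey (n = 3 per group). Red points lie below all blue points in 9 panels, and in Nr4a3 cKO 37 at 3.30 CPM lies above WT 27 at 2.81 CPM.

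Egr1 (chromosome 18, 34861207 to 34864956, plus strand, 2 to 3 exons), the most studied zinc finger factor of the family, had 919 CPM in WT 14, 863 in WT 27 and 1005 in WT 29. It had 569 CPM in cKO 8, 494 in cKO 10 and 415 in cKO 37, and the libraries are listed in this order from here on. The WT libraries were all high, and the 293 CPM between the lowest of them and the highest cKO library was wider than the range within either group. Its cKO mean was 53% of the WT mean (log2 -0.91 ± 0.11, standard error; 95% interval -1.17 to -0.66). Egr2 (chromosome 10, 67537869 to 67542188, plus strand), whose promoter window holds the CArG box, had 50, 42.1 and 53.1 CPM in the WT libraries and 26.9, 22.3 and 16.4 CPM in the cKO libraries, in the same order. Egr1 and Egr2 ranked the 6 libraries alike, with WT 29 highest and cKO 37 lowest in both. The Egr2 mean of cKO was 45.2% of that of WT (log2 -1.15 ± 0.19, 95% interval -1.62 to -0.68). Egr3 (chromosome 14, 70077445 to 70080157, plus strand), a further factor of the family, had 24.4, 18.4 and 18.7 CPM in WT and 14.5, 14.6 and 17.1 CPM in cKO. Here the groups were separated by only 1.3 CPM, and cKO 37, which was the lowest library for Egr1 and Egr2, was the highest of the cKO libraries. The Egr3 difference was -0.41 ± 0.12 on the log2 scale (95% interval -0.67 to -0.15).

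The balance within the Egr family differed by library. Per kilobase of exon, the ratio of Egr1 to Egr2 was 17.7, 19.8 and 18.3 in the WT libraries and 20.4, 21.4 and 24.3 in the cKO libraries. The ratio of Egr2 to Egr3 was 0.981, 1.09 and 1.36 in WT and 0.885, 0.728 and 0.459 in cKO, so Egr3 stood above Egr2 in every cKO library and below it in WT 27 and WT 29. The ratio of Egr1 to Egr3 was 17.4 to 24.8 in WT and 11.2 to 18.1 in cKO, with overlap between WT 14 and cKO 8.

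Ier2 (chromosome 8, 84661331 to 84662852, minus strand), a nuclear protein gene with 1 exon, had 177, 185 and 191 CPM in the WT libraries and 119, 111 and 106 CPM in the cKO libraries. Both groups were tight, with a coefficient of variation of 3.82% in WT and 5.97% in cKO, and 57.8 CPM lay between them. The log2 difference was -0.72 ± 0.06 (95% interval -0.86 to -0.57), the smallest standard error of the 10. Ier3 (chromosome 17, 35821713 to 35822911, plus strand, 2 exons), a stress response gene that affects cell survival, had 83.9, 63 and 67.8 CPM in WT and 46.8, 50.1 and 47.4 CPM in cKO. The WT libraries were spread by the high value of WT 14, whereas the cKO libraries were nearly level (log2 -0.57 ± 0.10, 95% interval -0.79 to -0.36). Ier5 (chromosome 1, 155096367 to 155099636, minus strand, 1 exon), a regulator of heat shock factor activity, had 53.3, 53.1 and 53.4 CPM in WT and 43.2, 41.3 and 34.6 CPM in cKO. The WT libraries were nearly identical (coefficient of variation 0.24%), and cKO 37 was the lowest. The Ier5 difference was -0.43 ± 0.08 (95% interval -0.60 to -0.25).

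Csrnp1 (chromosome 9, 119971166 to 119984658, minus strand, 4 to 5 exons), a cysteine and serine rich nuclear protein, showed the lowest fold change of the 10. It had 60.8, 43.8 and 52.3 CPM in WT and 22.9, 20.2 and 20.4 CPM in cKO. The cKO libraries were close together at 40.5% of the WT mean, and the WT libraries were spread (coefficient of variation 16.2% against 7.12%). The log2 difference was -1.30 ± 0.11 (95% interval -1.56 to -1.04), and 28 of the 16089 genes tested had a lower estimate. In GENCODE M21 Cx3cr1 on the same strand and 1700019L13Rik on the other overlap Csrnp1. As the use of strand in the counting is not given, part of its reads could belong to them.

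Nr4a1 (chromosome 15, 101266846 to 101274794, plus strand, 7 to 8 exons), the receptor Nur77, had 278, 286 and 344 CPM in WT and 186, 163 and 155 CPM in cKO. WT 29 was the highest, and 91.7 CPM separated the groups (log2 -0.85 ± 0.10, 95% interval -1.06 to -0.64). Nr4a2 (chromosome 2, 57107226 to 57124003, minus strand, 7 to 8 exons), the receptor Nurr1, had 124, 81.6 and 118 CPM in WT and 79.1, 68.5 and 61.8 CPM in cKO. WT 27 was close to the cKO libraries, only 2.48 CPM above cKO 8, and the WT coefficient of variation was 21.2% (log2 -0.63 ± 0.18, 95% interval -1.07 to -0.19). Nr4a3 (chromosome 4, 48051248 to 48083352, plus strand, 8 exons), the receptor Nor1, was scarce, with 4.4, 2.81 and 3.33 CPM in WT and 2.44, 1.93 and 3.30 CPM in cKO, from counts of 120 to 322. Its groups overlapped through cKO 37 alone, and its interval reached above 0 (log2 -0.45 ± 0.22, 95% interval -0.94 to 0.04). The ratio of Nr4a1 to Nr4a2 per kilobase was 3.04 to 4.73 in WT and 3.18 to 3.39 in cKO, so the groups overlapped in it.

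The count of 8 moved with the libraries and settings used, and like the count itself this is a description. It dropped to 6 when WT 14, WT 29 or cKO 10 was left out. In these fits 3.43%, 2.36% and 4.54% of all genes tested were called lower, against 6.45% in the main fit. The omission of WT 27 gave 9 (3.74% of all genes tested called lower), as did DESeq2 (1396 of 14359). Egr2 was not past the threshold without WT 14, WT 29 or cKO 10, and Egr3 in 8 of the 15 alternatives, among them the omission of WT 14, WT 29, cKO 8 or cKO 10. Nr4a2 was past it with DESeq2 and without WT 27. Without cKO 37, the library low in cartilage markers, the log2 differences were -0.81 for Egr1, -0.98 for Egr2, -0.34 for Ier5 and -0.50 for Egr3. For Nr4a3 the difference was -0.69 without cKO 37 and -0.45 with it, and Nr4a3 was still not past the threshold. The members have a median exonic length of 2683 bases, near the 2782 of all genes tested, but a short genomic span (median 4035 against 20556 bases) and a transcript GC content of 48.6% to 60.9% (median 53.9% against 50.3%). With an offset for GC content and length the Ier2 difference was -0.62, the only member value that this or any other alternative moved by more than 1 SD between libraries.

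**Figure D2:**
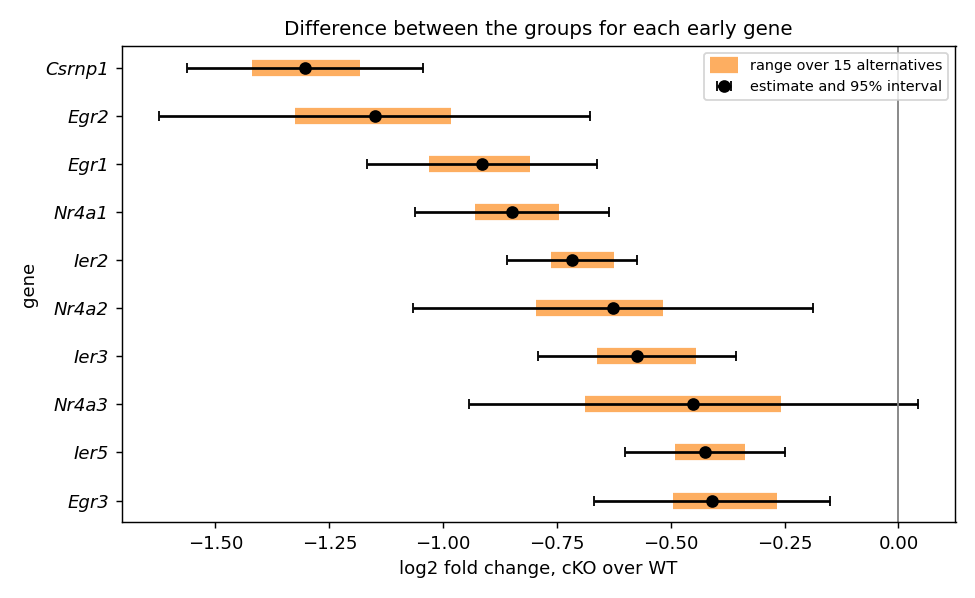
Fitted log2 fold change of cKO over WT (horizontal axis) for the 10 early genes (vertical axis), with the 95% interval as black bars and the range of the estimate over the 15 alternatives as orange bands. The estimates and their bands lie below 0 throughout, and the interval of Nr4a3 alone crosses 0 (-0.94 to 0.04).

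Levels per kilobase of exon spanned a wide range. Egr1 was the most abundant, with 302 ± 23.4 CPM per kilobase in WT and 160 ± 25.2 in cKO (mean ± SD, n = 3 per group), and Nr4a3 the least, with 1.86 ± 0.432 and 1.36 ± 0.367. Over the 6 libraries the order of mean log2 level was Egr1, Ier2, Nr4a1, Ier3, Nr4a2, Ier5, Egr3, Csrnp1, Egr2 and Nr4a3. Of the 9 pairs of neighbours in this order, 5 stood in the same order in all 6 libraries: Egr1 above Ier2, Nr4a1 above Ier3, Ier3 above Nr4a2, Nr4a2 above Ier5, and Egr2 above Nr4a3. An exact two-sided sign-flip permutation test gave each of them p = 0.03125, the smallest that 6 libraries allow, and an adjusted p of 0.05625 over the 9 pairs. None therefore passed a threshold of 0.05. Ier2 and Nr4a1 did not differ beyond their spread (mean log2 difference 0.06, SD 0.11, exact p = 0.25, adjusted p = 0.321). The same held for Ier5 and Egr3 (exact p = 0.125) and for Csrnp1 and Egr2 (exact p = 0.375). For Egr3 and Csrnp1 (exact p = 0.5625) the test pooled 2 groups with opposite orders, so their spread holds the group difference. By the authors' RPKM, Csrnp1 was above Egr3 in every WT library (15.19, 11.84 and 13.16 against 12.43, 10.13 and 9.615). It was below Egr3 in every cKO library (5.622, 5.383 and 5.412 against 7.265, 7.938 and 9.233). In WT Csrnp1 and Egr2 averaged 18.1 and 16.3 CPM per kilobase, above Egr3 at 14.5, and in cKO 7.33 and 7.38, below Egr3 at 10.9.

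**Figure D3:**
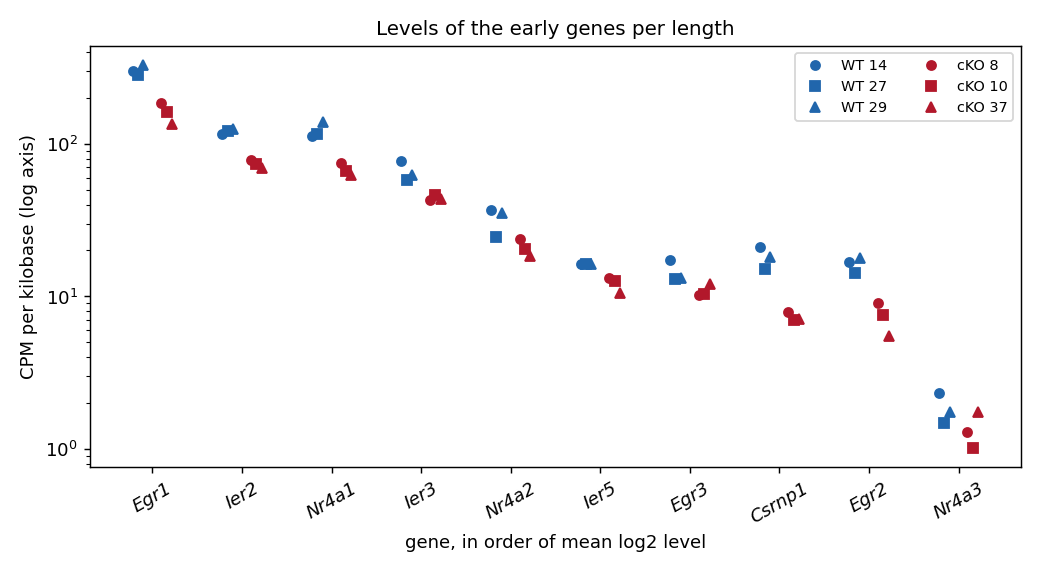
CPM per kilobase of exon (vertical log axis) of the 10 early genes, in order of mean log2 level (horizontal axis), with 1 point per library (blue WT, red cKO; the shapes name the libraries). Levels fall from 135 to 327 CPM per kilobase in Egr1 to 1.03 to 2.34 in Nr4a3, and Csrnp1 and Egr2 lie above Egr3 on average in WT and below it in cKO.

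Within each group the early genes tended to be high or low in the same libraries. In WT, 8 of the 10 had their lowest value in WT 27, and WT 14 and WT 29 each held the highest value of 5. In cKO, 7 of the 10 were highest in cKO 8 and 6 were lowest in cKO 37. After the group means of log2 CPM were removed, the median correlation over the 45 pairs of members was 0.46 (33 pairs positive), against 0.01 for members with every other tested gene. This is a description over 6 libraries that share their group means and scaling. Egr1 and Egr2 varied most alike (r = 0.985), followed by Csrnp1 and Nr4a2 (0.916) and Ier2 and Nr4a1 (0.898). Egr3 and Nr4a3 did not follow the rest (r = -0.01 and 0.03 with the mean of the other members), and the lowest pair was Egr3 with Ier2 (-0.77). Both Egr3 and Nr4a3 were highest in WT 14 among WT and in cKO 37 among cKO.

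**Figure D4:**
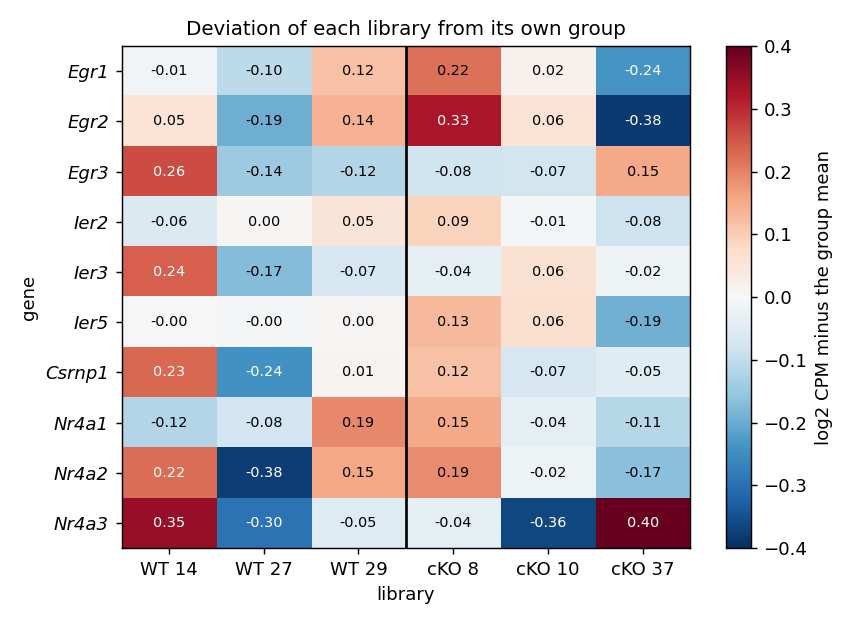
Log2 CPM minus the mean of the library's own group (colour and printed value) for the 10 early genes (rows) in the 6 libraries (columns, WT left of the line). WT 27 is at or below its group mean in 9 genes and cKO 8 is above it in 7, whereas Egr3 and Nr4a3 are above it in cKO 37 (0.15 and 0.40).

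The genes whose pattern over the 6 libraries was most like the mean early gene profile, by Pearson r, were Rela (r = 0.998), Gmppb (0.997), Ptpla (0.995), Hipk2 (0.995), Dusp18 (0.993), Syde2 (0.993), Bicd2 (0.992) and Samd5 (0.992). These r values largely restate the difference between the groups. Rela, the p65 subunit of NF-kB, had 62.7, 59.8 and 61.3 CPM in WT and 53.7, 52.6 and 52.7 CPM in cKO, a small difference (log2 -0.21 ± 0.06, edgeR adjusted p = 0.0338) that was not called in 7 of the 15 alternatives, among them the omission of any library but cKO 37. Hipk2, a nuclear kinase, had 31.1, 28.3 and 30.9 CPM in WT and 23.4, 22 and 21.3 CPM in cKO, and it fell by 0.44 ± 0.07 log2 units (adjusted p = 0.00428). Gmppb, an enzyme that makes GDP-mannose, fell by 0.62 ± 0.07 (adjusted p = 0.00154). Once the group means were removed, Hipk2 (r = 0.997), the splicing kinase Clk1 (0.996), Kalrn (0.995) and Plxnc1 (0.995) were nearest. They were picked as the highest r among all genes with a mean log2 CPM of 1 or more. With so many genes and only 6 libraries, such high values carry no weight by themselves. Clk1 rose in cKO (log2 0.45 ± 0.07, adjusted p = 0.00381), and Kalrn and Plxnc1 had differences of 0.02 ± 0.11 each and did not pass (adjusted p = 0.935 and 0.941).

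Of 5 paralogues outside the 10, 4 were tested, 1 rose and 3 did not pass with edgeR. Of the 4 tested, 3 had an unadjusted p under 0.05, as had 4675 of all 16089 genes tested. Csrnp3 rose from 8.92 ± 1.96 to 15.1 ± 2.69 CPM (7.54, 8.04 and 11.2 in WT against 17.8, 12.4 and 15 in cKO, log2 0.75 ± 0.18, adjusted p = 0.0334), whereas Csrnp1 was lower in cKO. The share of all genes tested that were called higher was 5.96%. Leaving out WT 14, WT 27, cKO 8 or cKO 37 ended the Csrnp3 call (adjusted p = 0.0786 to 0.099). Csrnp2 (log2 -0.22 ± 0.08), Ier5l (-0.32 ± 0.11) and Egr4 (-1.07 ± 0.58) did not pass (adjusted p = 0.108, 0.076 and 0.262). Egr4 was barely expressed, at 0.544 to 1.2 CPM in WT and 0.104 to 0.709 in cKO.

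Most of the other early response genes that were listed had lower estimates in cKO. Of 53 such genes outside the families above, listed with earlier results of these data known and all tested, 38 fell and 15 did not pass, where 6.45% of all genes tested fell. The list's median log2 fold change was -0.60, and 51 of its 53 estimates lay below 0 (7842 of 16089 over all genes). As the list was drawn up with earlier results known, these shares describe the listed genes and support nothing by themselves. The largest fall was in Atf3, a stress-induced transcription factor, with 38.2, 30.4 and 40.9 CPM in WT and 14.2, 13.2 and 11.6 CPM in cKO (log2 -1.49 ± 0.12, adjusted p = 0.000764). Fos, the AP-1 subunit gene that is the classical SRF target, had 1474, 1281 and 1448 CPM in WT and 917, 848 and 730 CPM in cKO (-0.75 ± 0.10, adjusted p = 0.00261). The groups of both genes were clearly apart. The AP-1 subunit genes Jund (-0.69 ± 0.07) and Junb (-0.74 ± 0.08), the kinase adaptor gene Trib1 (-0.78 ± 0.08) and the cytokine feedback inhibitor Socs3 (-0.89 ± 0.09) also fell (adjusted p = 0.000764, 0.00112, 0.000813 and 0.000831). So did the Kruppel-like factor Klf4 (-0.66 ± 0.08) and the MAP kinase phosphatase Dusp1 (-0.63 ± 0.08, adjusted p = 0.00164 for both). These 8 were called under all 15 alternatives, as were 23 of the 38 in all. Without cKO 8, 25 of the list fell, where 1.81% of all genes tested fell. Gadd45a (0.26 ± 0.15) and Per1 (0.19 ± 0.44), named here after their values were seen, had the estimates above 0 and did not pass (adjusted p = 0.281 and 0.826).

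**Figure D5:**
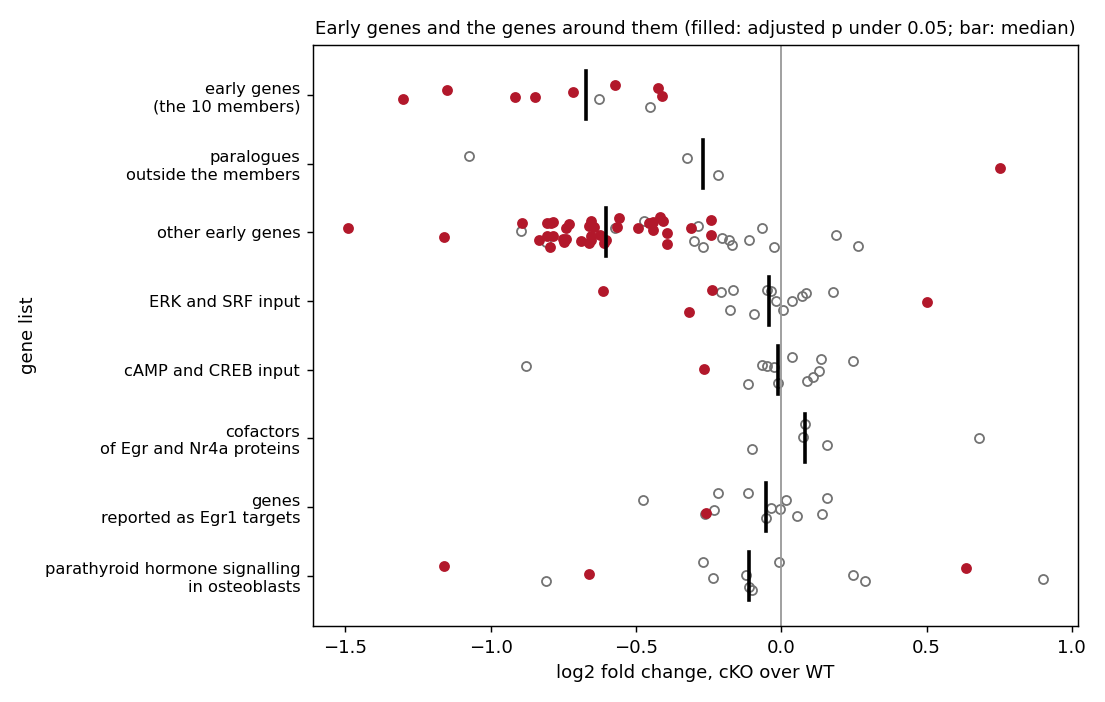
Log2 fold change of cKO over WT (horizontal axis) of each tested gene in 8 lists (vertical axis; points are spread within a row so they can be seen), filled where the edgeR adjusted p is under 0.05, with the list median as a black bar. The medians of the 10 early genes and of the 53 other early genes are -0.67 and -0.60, and those of the ERK and SRF and the cyclic AMP and CREB lists are -0.04 and -0.01.

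Srf, the gene of the factor that binds the CArG box, was itself lower in cKO. Of 16 genes of the ERK and SRF route, 3 fell, 1 rose and 12 did not pass (median -0.04), where 12.4% of all genes tested were called in either direction. Srf had 61.5, 65.1 and 70.4 CPM in WT and 42.2, 48.1 and 38.5 CPM in cKO, without overlap (log2 -0.61 ± 0.09, adjusted p = 0.00273). Mkl1, a coactivator of SRF that responds to actin, fell by 0.32 ± 0.06 (58, 59.8 and 58.5 CPM against 46.8, 46.5 and 48.3, adjusted p = 0.00705), and both calls held under all 15 alternatives. The CREB and histone kinase genes Rps6ka4 (-0.24 ± 0.07) and Rps6ka5 (0.50 ± 0.11) were called in opposite directions (adjusted p = 0.04997 and 0.0155). Rps6ka4 was not called in 9 of the 15 alternatives, among them the omission of any library but cKO 10, and Rps6ka5 not without WT 14, WT 29 or cKO 8. The ETS partners of SRF, Elk1 (-0.02 ± 0.06), Elk3 (0.04 ± 0.07) and Elk4 (0.08 ± 0.07), did not pass (adjusted p = 0.439 to 0.861). They are named for their place in the route.

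In the cyclic AMP and CREB list 1 of 13 genes fell and 12 did not pass (median -0.01), where 6.45% of all genes tested fell. Prkaca, a catalytic subunit of protein kinase A, fell by 0.26 ± 0.07 (60.3, 63.7 and 62.1 CPM against 52.7, 54.6 and 47.6, adjusted p = 0.0268), a call that ended when any WT library or cKO 8 was left out. Prkacb (0.13 ± 0.06), Rps6ka3 (0.14 ± 0.07) and the acetyltransferase Ep300 (0.11 ± 0.06) did not pass (adjusted p = 0.163, 0.226 and 0.256), nor did Creb1 itself (0.09 ± 0.07, adjusted p = 0.415), named for its role. None of the 5 cofactor genes of Egr and Nr4a proteins passed with edgeR, DESeq2 or limma voom. An unadjusted edgeR p under 0.05 was found for 4675 of all 16089 genes tested and for 2 of the 5 cofactor genes. These were Nab2, a corepressor that binds Egr proteins and is itself induced by them, at 44, 42.7 and 40.8 CPM in WT and 46.5, 47.4 and 48.3 CPM in cKO (log2 0.16 ± 0.06, adjusted p = 0.101), and the retinoid receptor Rxrg (0.68 ± 0.26, adjusted p = 0.103). Nab2 was called higher only with the GC and length offset, and Rxrg only without WT 27. Nab2 values were thus slightly higher in every cKO library, where Egr1, Egr2 and Egr3 were lower.

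Of 13 genes reported as Egr1 targets, 1 fell and 12 did not pass (median -0.05), where 6.45% of all genes tested fell. Tgfb1, which encodes the growth factor TGF-beta 1, had 123, 117 and 121 CPM in WT and 97.5, 113 and 91.3 CPM in cKO (-0.26 ± 0.08, adjusted p = 0.0497), and the call was lost in 11 of the 15 alternatives. The matrix receptor Cd44 (-0.26 ± 0.09) and the growth factor Pdgfa (-0.23 ± 0.09) did not pass (adjusted p = 0.0811 and 0.101). Nab2, counted among the cofactors above, is on this list too, with an estimate above 0 (0.16 ± 0.06, edgeR adjusted p = 0.101). Of the 13 estimates, 9 lay below 0. Of 14 listed genes of parathyroid hormone signalling in osteoblasts, 13 were tested, of which 2 fell, 1 rose and 10 did not pass (median -0.11). Over all genes tested 12.4% were called in either direction. On the parathyroid hormone list, 4 genes also stand among the other early genes. Both that fell, Sik1 and Il6, are among these 4 and were counted there, so no gene found only in the parathyroid hormone list fell. The kinase gene Sik1, a cyclic AMP target, fell by 0.66 ± 0.11 (84.2, 63.6 and 78.9 CPM against 46.2, 44.3 and 52.8, adjusted p = 0.00761). Il6 fell by 1.16 ± 0.31 (adjusted p = 0.0496), and the collagenase gene Mmp13 rose by 0.64 ± 0.17 (1028, 939 and 856 CPM against 1075, 1734 and 1578, adjusted p = 0.0423). Both calls were lost in 8 of the 15 alternatives, Il6 without any library but WT 27 and Mmp13 without any but cKO 8. Gnas, the stimulatory G protein subunit, did not pass (-0.27 ± 0.08, adjusted p = 0.0575).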

How the data were processed

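RNA-seq gene counts of 6 calvaria libraries were analysed. The counts deposited by the authors are reads per gene, and every value is even (0 odd counts), for which no reason is given. Per the submitters' processing notes the authors used bcl2fastq, TopHat2 2.0.6 on mm10 and HTSeq. The sources used here do not give the annotation, the strand setting or filters. The RPKM values deposited by the authors served to check the order of levels.

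Fits used R 4.3.3 and edgeR 4.0.16. Low genes were removed with filterByExpr (minimum count 10), libraries were scaled by TMM (factors 0.952 to 1.07), and cKO was compared with WT by the robust quasi-likelihood F test, with Benjamini-Hochberg adjustment over 16089 genes. Steps were tested on simulated data. As nothing says that the libraries are separate animals, p-values reflect only how far these libraries vary, which may be technical. The members and all lists were chosen with earlier results of these data known. Named were all members, up to 4 genes of each list with the smallest p (8 of the other early genes), and the 8 and 4 genes nearest in profile (mean log2 CPM 1 or more). Neighbours by level were compared by exact permutation.

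Alternatives were RLE and upper-quartile scaling, no filter, a mean CPM of 1, Rn45s left out, DESeq2 1.42.0, voom in limma 3.58.1, an offset for GC content and length, halved counts, and each library left out.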

Additional observations from a re-analysis of the deposited data

How the results depend on the processing

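No paired analysis was possible because the labels name no pair or batch, and the label numbers do not link the 2 groups. All 150 member estimates under the 15 alternatives kept their sign, and 149 moved by less than 1 SD between libraries. Leaving out 1 library gave 586 to 1985 genes called in all (586 without cKO 8, 783 without WT 29, 1127 without WT 14, 1169 without WT 27, against 1997), 6 to 9 members, 25 to 37 other early genes and 5 to 6 neighbour pairs in 1 order. The fits without a library have fewer samples, and 1.81% (without cKO 8) to 6.48% (without cKO 37) of all genes tested were called lower in them. The other alternatives gave 1936 to 2569 genes called (764 to 1432 lower), 7 to 9 members and 34 to 42 other early genes. Of all calls 52% were lower (1038 against 959 higher). Upper-quartile scaling made this 39.1% (764 and 1191), and the offset for GC content and length 67% (1432 and 706). Leaving out a library for the order of levels was chosen after the data were seen. Halving the counts left 8 members called, with 6.91% of all genes tested called lower, and the scarce Nr4a3 at -0.44 against -0.45 (log2).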

Other observations

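Some genes of the other early list were higher in cKO 37 than in the other cKO libraries. Per1, a clock gene that is also induced early, had 73.2 and 73.4 CPM in cKO 8 and cKO 10 and 175 CPM in cKO 37, against 76.5 to 103 CPM in WT. Errfi1, a feedback inhibitor of the EGF receptor, had 87.7 and 112 CPM in cKO 8 and cKO 10 and 173 CPM in cKO 37 (122 to 147 CPM in WT). Klf10 was at 49.1 CPM in both cKO 8 and cKO 10 and at 74.1 CPM in cKO 37 (77.6 to 82 CPM in WT). Tnfsf11, the gene of the osteoclast factor RANKL and part of the parathyroid hormone list, was at 38.8 CPM in cKO 37 and at 10.7 to 17.7 CPM in the other 5 libraries. In the same library Egr1, Egr2, Ier2, Ier5, Nr4a1 and Nr4a2 were at their lowest, whereas Egr3 and Nr4a3 were the highest of the cKO libraries, at 17.1 and 3.3 CPM. Crtc1, a CREB coactivator, was at 151 CPM in WT 27 and at 40.3 to 45.7 CPM in the other 5 libraries. These genes were named after their values were seen.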
